A study of Arabidopsis thaliana with 6 samples.

Results

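The transcripts described here are those of 5 Arabidopsis genes that make aliphatic glucosinolates: BCAT4, GSTU20, AT2G31790, UGT74B1 and AOP3. They were measured in the lib mutant and in its wild type. The members are 5 listed genes of methionine chain elongation, core glucosinolate synthesis and side-chain modification, each with a probe set of its own in the array annotation, that is, a set of short probes assigned to exactly 1 gene. A further side-chain gene with its own probe set, AT2G25450, was not among the members. It comes from a wider list of pathway genes used below, was called lower in lib and is described with the rest of the pathway. Each of the 5 genes had 1 such probe set, so the members are 5 of 22746 probe sets on the array, and 5 of the 13286 genes with a probe set of their own.

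The tested plants were 8-day-old lib mutants, and the plants they are set against were wild type plants of the same age. Both are of the Columbia-0 ecotype, grew on vertical agar plates with sucrose and received no treatment. Total RNA was hybridised to Affymetrix ATH1 arrays, with 3 arrays for lib and 3 for wild type that the labels call biological replicates. The labels give neither the mutated gene nor the allele of lib, so no targeted transcript was available to check the genotypes. The series title concerns a partial isoleucine deficiency and asks about branched-chain amino acid and glucosinolate genes.

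Glucosinolates are sulfur-rich defence compounds of cabbages and their relatives, and those derived from methionine are called aliphatic. Their synthesis runs in stages. Methionine first loses its amino group and is lengthened in cycles that resemble leucine synthesis. The core structure is then built through an aldoxime, a conjugate with glutathione, a thiohydroximate, its glucoside and finally a sulfated product, and the side chain may be modified at the end. The enzymes of elongation are related to those of branched-chain amino acid metabolism.

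The arrays had been scaled alike, with a median log2 signal of 7.40 to 7.52. The tissue is given as whole seedlings for each sample, but as roots in the design text of the series. Signals of 4 shoot markers (LHCB4.1, RCA, PRK, SBPASE) summed to 1092 to 1492 on lib arrays, against 1658 to 2636 on wild type arrays. The 3 root markers (EXPA7, EXPA18, PYK10) summed to 13542 to 15628 on lib arrays, against 17811 to 21898 on wild type arrays. Neither sum overlapped between genotypes, and no marker was at the lowest value of the scale. By mean log2 signal over all arrays, LHCB4.1, RCA, PRK and SBPASE exceeded 85.51%, 70.25%, 33.21% and 31.07% of all probe sets. EXPA7, EXPA18 and PYK10 exceeded 75.0%, 83.61% and 99.88%. Which of the 2 tissue names holds was not tested. The shoot sum is mostly LHCB4.1, with 730 to 981 on lib arrays, against 1054 to 1718 on wild type arrays. Among the 4 shoot markers, RCA and LHCB4.1 were called lower in lib at a log2 change of -0.62 each. PRK (-0.70) and SBPASE (-0.28) overlapped and did not pass. The root sum is mostly PYK10, with 11847 to 14025 on lib arrays, against 16373 to 20685 on wild type arrays, and a log2 change of -0.47. EXPA7 (0.20) and EXPA18 (-0.0041) overlapped and did not pass. The calls of LHCB4.1, RCA and PYK10 were lost in 7, 11 and 10 of 14 alternatives. The part of tissue makeup in the results below was not tested, and fewer cells of a type and less RNA per cell cannot be told apart in such samples.

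Of the 5 members, 3 rose in lib, none fell and 2 did not pass. BCAT4 rose 7.27-fold, GSTU20 rose 4.25-fold and AT2G31790 rose 3.27-fold. These are an enzyme of chain elongation and 2 enzymes of core synthesis. UGT74B1, also of core synthesis, and AOP3, of side-chain modification, did not pass. A change was called at an adjusted p under 0.05 in limma, fitted to all probe sets with Benjamini-Hochberg adjustment. By the same rule 20.7% of all probe sets were called in either direction, 10.4% as higher and 10.3% as lower in lib. The share was larger in a separate fit of the brighter 50% alone, which had its own trend and adjustment. In that fit, which holds 4 of the members, 40.3% were called in either direction. The share of these brighter probe sets called in the fit to all probe sets was not computed. A rise of at least 2-fold, which those 3 members met, was called for 2.44% of all probe sets. The median log2 change of the members was 1.71, and that of all probe sets was -0.04. Because the members were chosen with earlier results of these arrays known, these counts describe the 5 genes and are no test of the pathway.

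**Figure D1:**
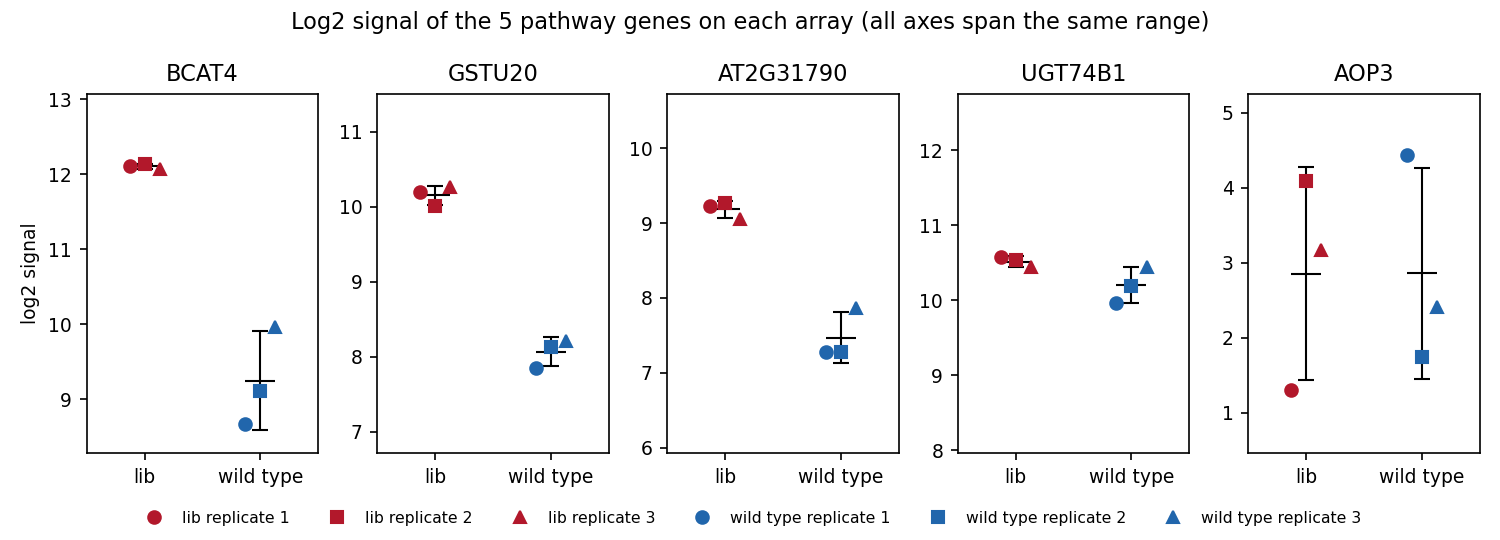
Log2 signal (vertical axis, spanning the same range in each panel) of the 5 genes on the 3 lib arrays (red) and the 3 wild type arrays (blue), with the mean and SD of each genotype in black. BCAT4, GSTU20 and AT2G31790 lie higher on each lib array than on any wild type array, UGT74B1 overlaps by a narrow margin, and AOP3 scatters over the same range in both genotypes.

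BCAT4 encodes the aminotransferase that opens methionine chain elongation by turning methionine into its 2-oxo acid. Its signal was 4448, 4515 and 4309 on the lib arrays, against 406, 553 and 1001 on the wild type arrays. The lowest lib signal was 4.30 times the highest wild type signal, so the groups lay far apart. The log2 change was 2.86 (SE 0.26, 95% confidence interval 2.27 to 3.46, adjusted p = 0.000247 in limma). Only 38 of the 22746 probe sets had a larger log2 rise. BCAT4 was nearly constant in lib, where its highest array was 1.05 times its lowest. In wild type the highest array was 2.47 times the lowest. Among the brighter 50% of all probe sets, 5.69% had a smaller SD than BCAT4 on the lib arrays, and 99.6% had a smaller SD than BCAT4 on the wild type arrays.

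GSTU20 encodes a tau-class glutathione transferase assigned to the step of core synthesis at which the activated aldoxime is joined to glutathione. Its signal was 1170, 1032 and 1224 on the lib arrays, against 231, 281 and 297 on the wild type arrays. Every lib array was thus at least 3.47 times any wild type array. The log2 change was 2.09 (SE 0.12, 95% confidence interval 1.80 to 2.37, adjusted p = 6.29e-05 in limma). By p-value it ranked 12 among the 22746 probe sets, although 194 probe sets had a larger log2 rise. Its spread was alike in both genotypes, with an SD of 0.13 in lib and 0.19 in wild type on the log2 scale (n = 3 each).

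AT2G31790 encodes a glucosyltransferase of the UGT74 family, assigned to the step of core synthesis that puts glucose on the thiohydroximate. Its signal was 602, 615 and 531 on the lib arrays, against 155, 155 and 233 on the wild type arrays. The lowest lib array was 2.28 times the highest wild type array. The log2 change was 1.71 (SE 0.17, 95% confidence interval 1.32 to 2.10, adjusted p = 0.000340 in limma).

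UGT74B1 encodes a second glucosyltransferase of the same family and step, one that also serves the glucosinolates made from tryptophan and phenylalanine. Its signal was 1527, 1484 and 1390 on the lib arrays, against 1001, 1174 and 1393 on the wild type arrays. Wild type replicate 3 lay just above lib replicate 3, and the other 2 wild type arrays were below all lib arrays. The log2 change of 0.31 (SE 0.12) did not pass, with an adjusted p = 0.109 in limma. Its 95% confidence interval reached from 0.04 to 0.59, that is, up to a 1.51-fold difference. Without wild type replicate 3 the log2 change was 0.43 and passed (adjusted p = 0.0315 in limma), and with array weights it was 0.38 and passed (adjusted p = 0.0292 in limma).

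AOP3 encodes a dioxygenase that turns methylsulfinyl side chains into hydroxyalkyl ones, and Columbia plants are known to accumulate the methylsulfinyl forms. Its signal was 2.46, 17.0 and 9.01 on the lib arrays, against 21.7, 3.34 and 5.29 on the wild type arrays. Both genotypes covered nearly the same range, close to the scale's lowest value of 1. The log2 change was -0.01 (SE 0.96) and did not pass (adjusted p = 0.998 in limma). The 95% confidence interval of -2.16 to 2.15 includes changes larger than that of AT2G31790 in either direction, so a change of that size was not detectable at these signals. The sign of the AOP3 change turned with the setting, to 0.07 after quantile normalization, 0.77 without lib replicate 1 and 0.78 without wild type replicate 1.

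The groups did not overlap for 3 of the 5 members, each higher in lib, where 38.1% of all probe sets did not overlap in either direction and 18.0% were higher in lib without overlap. The difference between the 2 glucosyltransferases was compared within arrays, as the log2 signal of AT2G31790 minus that of UGT74B1. It averaged -1.33 ± 0.06 in lib and -2.73 ± 0.17 in wild type (SD, n = 3 each), so AT2G31790 gained 1.40 on the log2 scale relative to UGT74B1. The same measure against UGT74B1 gave a gain of 2.55 for BCAT4 and of 1.77 for GSTU20. In each of these 3 comparisons the lib arrays lay above all wild type arrays. The signals given above already fixed this, because UGT74B1 varied less over all arrays than the gaps between genotypes of the other 3 genes. The separation thus adds no support, and the comparisons share the same reference gene. The two-sided exact permutation p was 0.10 each, also after Benjamini-Hochberg adjustment over the 3 pairs, which is the smallest p that 3 arrays against 3 allow.

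Within the wild type, 4 of the members were highest on the same array. Wild type replicate 3 had the highest signal of BCAT4, GSTU20, AT2G31790 and UGT74B1. This array also had the highest median log2 signal of all arrays, 7.52. The share of all probe sets that were highest on it was not computed, so the order is not shown to be particular to these genes. On wild type replicate 3 the log2 signal exceeded the wild type mean by 0.72 for BCAT4, by 0.39 for AT2G31790, by 0.24 for UGT74B1 and by 0.15 for GSTU20. Wild type replicate 1 lay below the mean for the same genes, with BCAT4 at -0.58 and AT2G31790 at -0.19. AOP3 did not share this order, with its highest wild type signal in replicate 1. Among the lib arrays the deviations of these 4 genes stayed between -0.14 and 0.10, and no lib replicate was highest for all of them. Without wild type replicate 3 the log2 change was 3.22 for BCAT4, 2.16 for GSTU20 and 1.91 for AT2G31790, and without wild type replicate 1 it was 2.57, 1.98 and 1.61 in the same order of genes.

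**Figure D2:**
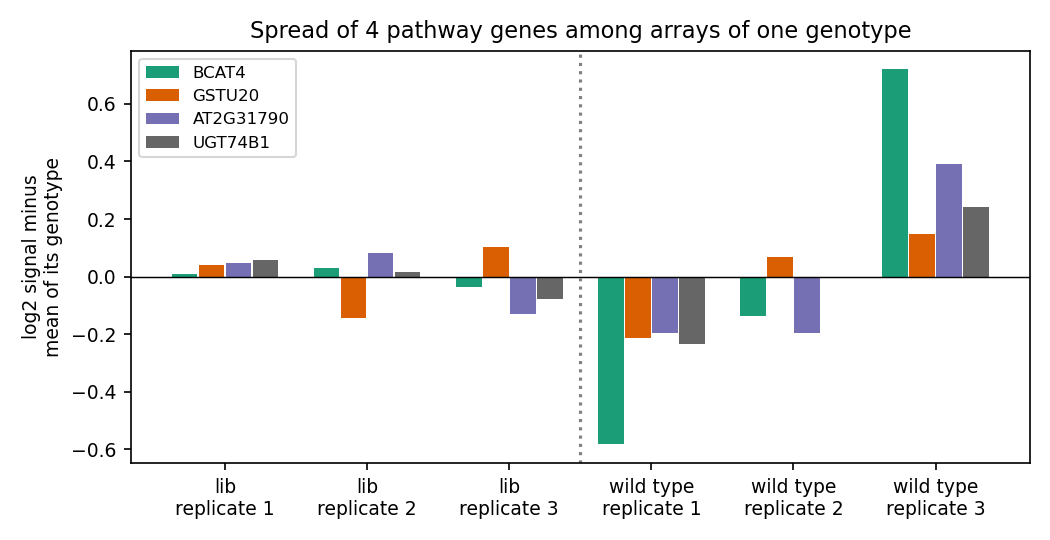
Log2 signal of 4 members minus the mean of the same genotype (vertical axis) on each array (horizontal axis, lib left of the dotted line, wild type right of it). In wild type replicate 3 all 4 genes are above their mean, BCAT4 most with 0.72, while the lib arrays stay between -0.14 and 0.10.

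The authors compared the genotypes too. In the authors' deposited table the ratio of lib to wild type is 6.77 for BCAT4, 4.23 for GSTU20, 3.22 for AT2G31790, 1.23 for UGT74B1 and 0.94 for AOP3. These ratios equal those of the mean signals, whereas the folds given above come from means of log2 signals. The unadjusted p-values in the authors' deposited table are 0.000218 for GSTU20, 0.00752 for AT2G31790, 0.0171 for BCAT4, 0.141 for UGT74B1 and 0.995 for AOP3. By that table GSTU20 has the smallest p of the members and BCAT4 the largest ratio, as in limma. Once the p-values of the authors' deposited table were adjusted by Benjamini-Hochberg, 0 of the 5 members stood under 0.05, where 0.290% of all probe sets did. GSTU20 came closest, at 0.0544.

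The pathway has more genes than the annotation resolves. Of 30 genes listed for the 3 stages, 6 had a probe set of their own: 1 of 9 in chain elongation, 3 of 13 in core synthesis and 2 of 8 in side-chain modification. The other 24, which include the methylthioalkylmalate synthases, the CYP79F and CYP83A1 oxidases and the sulfotransferases, were not analysed here. The sixth measured gene was AT2G25450, from the side-chain list. Its signal ranged from 1891 to 2102 on lib arrays, against 2321 to 3100 on wild type arrays, without overlap. On the log2 scale its level fell by 0.47 in lib (SE 0.12), with an adjusted p = 0.0277 in limma. The call was lost without any 1 of the lib replicates (adjusted p = 0.0609 to 0.0803 in limma). It was also lost when wild type replicate 1 was left out (adjusted p = 0.106 in limma) or wild type replicate 3 (adjusted p = 0.0901 in limma), without the intensity trend (adjusted p = 0.116 in limma) and with a replicate block (adjusted p = 0.0554 in limma). Thus 3 of the 6 measured genes rose, 1 fell and 2 did not pass, where 10.4% of all probe sets rose and 10.3% fell.

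The members were also set beside relatives of their own families. AT1G50110, from the list of branched-chain aminotransferases, had signals of 374 to 492 on lib arrays, against 196 to 263 on wild type arrays. It rose by 0.90 (SE 0.16, adjusted p = 0.00489 in limma). ATBCAT-5, of the same family, changed by 0.18 and did not pass (adjusted p = 0.177 in limma). Thus 2 of 3 measured aminotransferases, BCAT4 included, were called higher, where 10.4% of all probe sets were. Among 4 measured UGT74 genes 2 rose, AT2G31790 and UGT74D1, against the same 10.4%. Both counts include a member already described. UGT74D1, a glucosyltransferase known to act on auxin, had signals of 733 to 805 on lib arrays, against 462 to 578 on wild type arrays. Its log2 change was 0.60 (SE 0.11, adjusted p = 0.00565 in limma), smaller than that of AT2G31790. UGT74F1, a glucosyltransferase known to act on salicylate, was at 0.18 with an adjusted p = 0.764 in limma. AOP1, the relative of AOP3 in the same gene cluster, was at 0.25 with an adjusted p = 0.393 in limma.

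Regulators of the aliphatic genes were measured for 3 of 10 listed. MYC3, a bHLH factor that works with the MYB activators of the pathway, had signals of 468 to 568 on lib arrays, against 914 to 1061 on wild type arrays. It fell by 0.95 (SE 0.11, adjusted p = 0.000590 in limma). AT1G04770, linked to sulfur deficiency, was at -0.46 (adjusted p = 0.0428 in limma). That call was lost without each lib replicate and without wild type replicate 2 or 3 (adjusted p = 0.0733 to 0.122 in limma). It was also lost without the intensity trend (adjusted p = 0.144 in limma) and with the replicate block (adjusted p = 0.0969 in limma). MYC4, a close relative of MYC3, was at -0.30 and did not pass (adjusted p = 0.247 in limma). The MYB activators themselves, the indolic branch and the leucine counterparts of the elongation enzymes had 0 measured genes of 3, 10 and 5 listed, and were not analysed here.

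**Figure D3:**
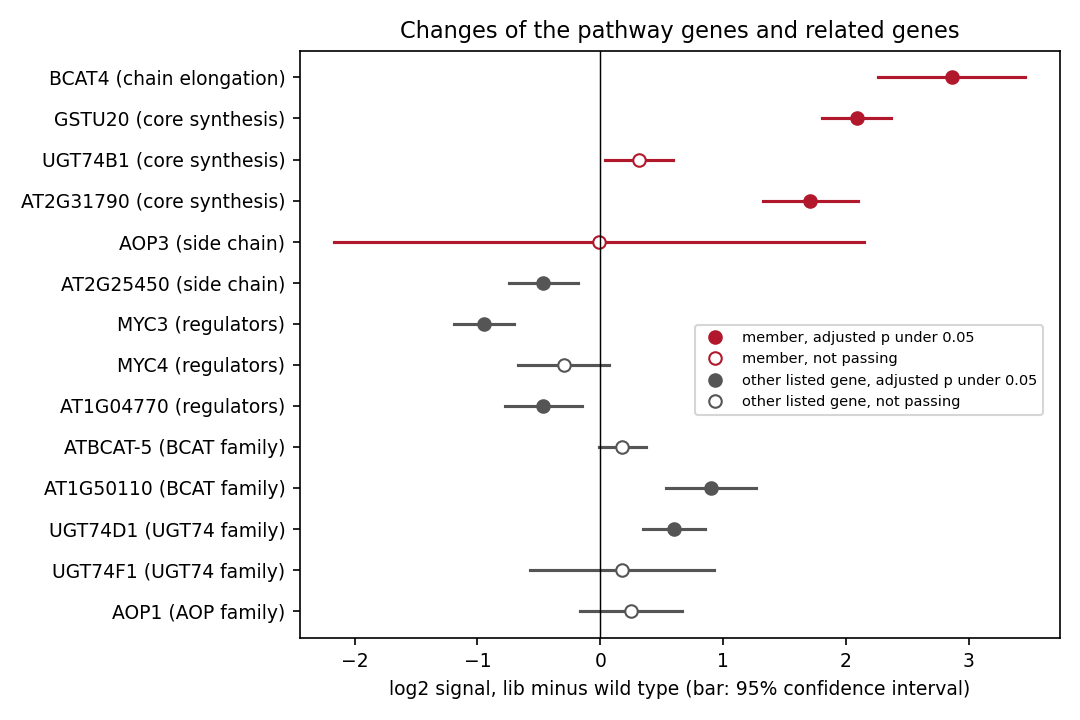
Log2 change, lib minus wild type (horizontal axis), with its 95% confidence interval, of the 5 members (red) and of the other measured genes in the lists (grey). Filled points have an adjusted p under 0.05: BCAT4 (2.86), GSTU20 (2.09) and AT2G31790 (1.71) stand farthest to the right and MYC3 (-0.95) farthest to the left among them, and AOP3 has the widest interval, -2.16 to 2.15.

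The pattern over the 6 arrays was compared with that of 6069 other probe sets that have 1 gene and lie in the brighter 50% of the table. Pearson correlations of the log2 values over these arrays, 3 of each genotype, are given as a description, since the arrays fall into the 2 genotypes. BCAT4 and AT2G31790 had an r of 0.994, BCAT4 and GSTU20 one of 0.981, and GSTU20 and AT2G31790 one of 0.976. With UGT74B1 the r was 0.880 for BCAT4, 0.857 for AT2G31790 and 0.790 for GSTU20. Of the 6069 probe sets, 5 had a higher r with BCAT4 than AT2G31790 had, and 42 a higher one than GSTU20 had. With GSTU20, 127 had a higher r than BCAT4 and 178 a higher one than AT2G31790.

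The genes whose pattern was most like that of BCAT4 were AT2G01610, AT3G49720 and AT1G14990, with an r of 0.998, 0.997 and 0.997. Those most like GSTU20 were AT5G02050, UPP, which encodes a uracil phosphoribosyltransferase, and AT5G61660, each with an r of 0.999. For AT2G31790 they were AT5G50740 (r of 0.998), AT5G11640 (r of 0.996) and again AT2G01610 (r of 0.996). An r over 0.95 was reached by 241 of the 6069 probe sets with BCAT4, 426 with GSTU20 and 234 with AT2G31790. Because the 8 genes were picked for likeness to members that rose, their direction was fixed by the choice and adds no support. All 8 rose in lib, where 10.4% of all probe sets did, but by less than the members they resembled. Their log2 changes ran from 0.51 for AT2G01610 (SE 0.13, adjusted p = 0.0227 in limma) to 1.27 for AT5G02050 (SE 0.10, adjusted p = 0.000144 in limma). AT2G01610 lost its call without lib replicate 1 or 2 and without wild type replicate 1 or 2 (adjusted p = 0.0618 to 0.0890 in limma), and with the replicate block (adjusted p = 0.0637 in limma).

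Neighbouring genes on the chromosome, in the order of the TAIR10.1 gene table, were set beside the members. Of the 30 protein-coding genes that are at most 3 genes away from a member, 18 had a probe set of their own. Of these, 2 rose and 6 fell in lib, where 10.4% of all probe sets were called higher and 10.3% lower. None of the 4 measured neighbours of BCAT4 was called. IKU2, directly beside it, had a log2 change of 0.68 (SE 0.72, adjusted p = 0.573 in limma), at signals of 14.4 to 33.1 on lib arrays, against 4.51 to 27.9 on wild type arrays.

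AT2G31790 rose while all 3 of its measured neighbours, which follow it directly, fell. AT2G31800 fell by 0.76 (SE 0.11, adjusted p = 0.00208 in limma). AT2G31810, a regulatory subunit of acetolactate synthase in branched-chain amino acid synthesis, fell by 1.02 (SE 0.13, adjusted p = 0.00114 in limma). AT2G31820 fell by 0.45 (SE 0.10, adjusted p = 0.0130 in limma), a call lost without lib replicate 1 (adjusted p = 0.0553), lib replicate 2 (adjusted p = 0.0525) or the intensity trend (adjusted p = 0.0675). A gene of glucosinolate synthesis that rose and one of branched-chain amino acid synthesis that fell thus lie 2 genes apart.

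GSTU20 lies in a row of tau-class glutathione transferase genes. GSTU22 had signals of 3718 to 4842 on lib arrays, against 1939 to 2177 on wild type arrays, and rose by 1.00 (SE 0.12, adjusted p = 0.000730 in limma). GSTU21, directly beside GSTU20, was at 1.20 without passing (adjusted p = 0.0826 in limma) and GSTU23 at -0.10 (adjusted p = 0.674 in limma). AT1G78400, on the other side of GSTU20, had signals of 1.00 to 1.85 on lib arrays, against 11.1 to 20.8 on wild type arrays. It was called lower in lib (adjusted p = 0.0110 in limma), and since its lib signals are at or near the lowest value of the scale no fold is given.

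Beside UGT74B1, AT1G24095 had signals of 384 to 644 on lib arrays, against 107 to 131 on wild type arrays. It rose by 1.98 (SE 0.21, adjusted p = 0.000422 in limma), whereas UGT74B1, the next gene, did not pass. Among 5 measured neighbours of AOP3, 2 fell. AT4G03030 fell by 0.60 (SE 0.09, adjusted p = 0.00199 in limma). AT4G03020 fell by 0.32 (SE 0.10, adjusted p = 0.0454 in limma), and this call was lost on leaving out any 1 of the 6 arrays (adjusted p = 0.0518 to 0.154 in limma), without the trend (adjusted p = 0.139 in limma) and with the block (adjusted p = 0.0800 in limma).

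**Figure D4:**
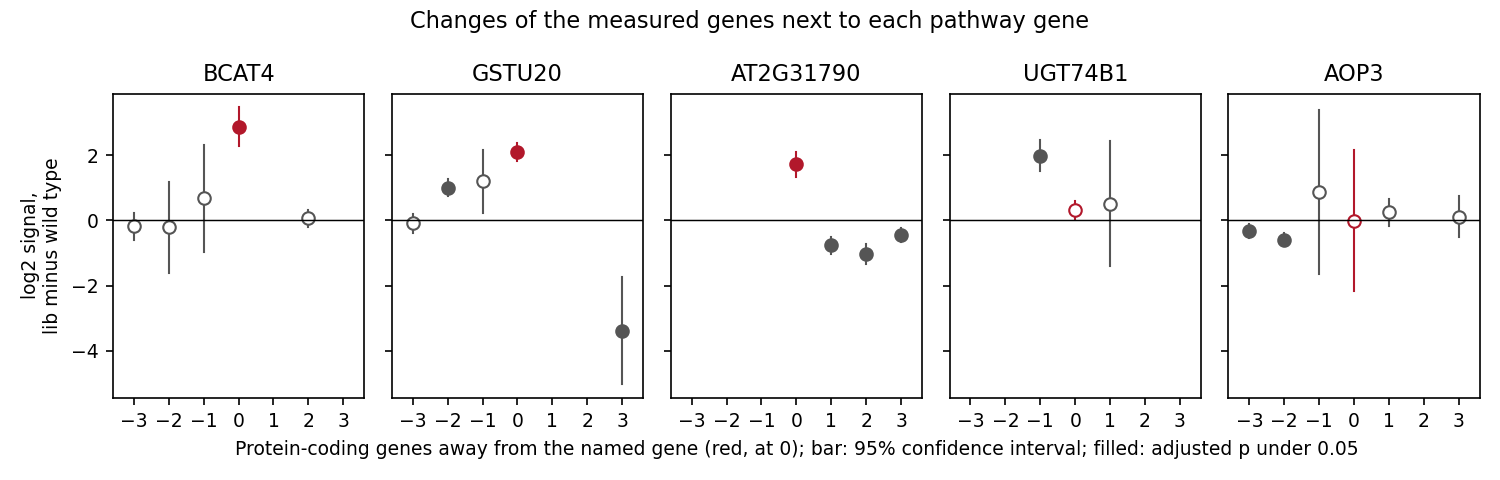
Log2 change, lib minus wild type (vertical axis), with its 95% confidence interval, of each member (red, at 0) and of the measured protein-coding genes up to 3 genes away on either side (grey, horizontal axis in genes, not distance). Filled points have an adjusted p under 0.05. AT2G31790 (1.71) stands above 0 while its neighbours (-0.76, -1.02 and -0.45) stand below; the lowest point beside GSTU20 is AT1G78400, whose lib signals are at or near the lowest value.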

How the data were processed

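The deposited array values are log2 signals per probe set, computed by the authors. The submitters' processing notes name MAS5 for this, with no version. The values were used as deposited. A second deposited table holds a p-value and a ratio (fold) of lib to wild type per probe set. Names come from the platform annotation, updated by gene identifier through the TAIR10.1 gene table. Of the probe sets, 13513 had 1 gene, 503 had several and were never named, and 8730 had none.

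Lib was compared with wild type over all 22746 probe sets with limma (3.58.1, under R 4.3.3), in a two-sided test. Its eBayes step used an intensity trend, with Benjamini-Hochberg adjustment over all of them and no filter on low values. The number of arrays, 3 per group, limits the precision. In simulated data made from this comparison over 22746 probe sets, 200 probe sets drawn from the brighter 50% were given known changes. Of these, 94% of log2 changes of 1 and 100% of log2 changes of 2 were called. Among the unchanged probe sets 9 were called. The simulated noise was normal and independent, with the spread that limma itself estimated. Only 200 probe sets were changed, where 4708 were called in the data, so the shares may differ on real arrays. Dim probe sets, such as that of AOP3, were not changed, so these shares do not apply to them. Nothing in the labels says whether the replicates came from separate plates, so p-values measure the spread between these samples.

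The members and gene lists were chosen with earlier results of these data known. Named beside the members are up to 4 measured genes of smallest p in each list, the 3 genes most like each called member, and its chromosomal neighbours. Alternatives were no trend, quantile normalization, centring on the median, log2(signal + 16), probe sets above the median, a replicate block, array weights, an adjusted p under 0.01, and each array left out.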

Additional observations from a re-analysis of the deposited data

How the results depend on the processing

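BCAT4, GSTU20 and AT2G31790 were called higher in lib in all 14 alternatives, with log2 changes of 2.57 to 3.22, 1.98 to 2.16 and 1.61 to 1.91 and adjusted p-values in limma up to 0.0178. UGT74B1 ranged from 0.20 to 0.43 when 1 array was left out, and it was called with array weights (0.38) and without wild type replicate 3 (0.43). The members called numbered 3, or 4 in those 2 settings. AOP3 ranged from -0.63 to 0.78 when 1 array was left out, turned to 0.069 after quantile normalization and 0.0043 after centring, was never called, and could not be tested among probe sets above the median because it lies below it. The gains against UGT74B1 ranged from 1.30 to 1.47 for AT2G31790, 2.37 to 2.79 for BCAT4 and 1.68 to 1.85 for GSTU20. Probe sets called fell to 2383 without the trend and 2257 at an adjusted p under 0.01, against 4708, and ranged from 2705 (without lib replicate 1) to 3747 with 1 array left out, with fewer samples each. The cause of the other moves was not tested. With the replicate block 3442 probe sets were called, against 4708 without it. Whether same-numbered arrays were grown or processed together is not given in the labels. Their deviations from the genotype means correlated at 0.013, -0.019 and -0.026, and those of differently numbered arrays at -0.015 to 0.034. Such correlations cannot settle whether the arrays were paired. With the block BCAT4, GSTU20 and AT2G31790 kept their calls, UGT74B1 (0.31) and AOP3 (-0.01) stayed without one, and the gains against UGT74B1 were 1.40, 2.55 and 1.77 for AT2G31790, BCAT4 and GSTU20. Dim signals limit what can be said of AOP3.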
